A study of Mus musculus with 6 samples.

Results

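The genes described here are 10 genes of the epithelial to mesenchymal transition, out of 18238 genes in the deposited tables. They were taken by symbol and form 2 sets of 5: the epithelial adhesion genes Cdh1 and Epcam with the simple keratin genes Krt8, Krt18 and Krt19, and the mesenchymal filament gene Vim with the transition transcription factor genes Snai1, Snai2, Zeb1 and Zeb2. RNA-seq was run on 6 samples of mice labelled as having lung cancer. Of these, 3 were treated with artemisinin (GF1 to GF3, here artemisinin replicates 1 to 3) and 3 were kept as the disease model (MF1 to MF3, here model replicates 1 to 3). Each sample is taken here as 1 mouse, though nothing beyond the word mice says that they are separate animals. Artemisinin is a plant sesquiterpene lactone used against malaria. The comparison asks which genes differ under the drug. All 6 mice are labelled with the disease, so no group of healthy mice is in the comparison. The strain, age, way of inducing tumours, tissue piece, dose and length of treatment are not stated in the labels.

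In the epithelial to mesenchymal transition, cells of an epithelium give up their contacts with neighbours and take on the shape and movement of connective tissue cells. E-cadherin, the product of Cdh1, holds epithelial cells together, and the keratins of simple epithelia form the filaments inside them. The proteins of Snai1, Snai2, Zeb1 and Zeb2 are zinc finger repressors that bind short DNA elements called E-boxes, those in the Cdh1 promoter among them. In whole lung, Cdh1, Epcam and simple keratins belong to alveolar and airway epithelium, while Vim, Zeb1 and Zeb2 are also normal genes of fibroblasts, endothelium and leukocytes. In bulk RNA such as this, fewer cells of a type and less RNA per cell cannot be told apart.

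The E-box bound by the Snai and Zeb factors was searched for in the promoters of 6 of the 10 genes, to show where these letters lie. The motif was CACCTG, or CAGGTG for the same element on the other strand, in the RefSeq window from 250 bases before to 50 bases after each gene start (GRCm38.p6). The search covered windows of 6 of the 10 genes (Epcam, Krt8, Krt18, Vim, Snai1 and Zeb2). Cdh1, Krt19, Snai2 and Zeb1 were left out of it, so no motif result is given for them. Epcam held 2 matches, 187 and 19 bases before the start, and Krt8, Krt18 and Snai1 held 1 each, at 111, 214 and 126 bases before it. The Vim window and the 4 Zeb2 windows held 0. Of 32851 mouse promoter windows of the same length, 20.2% held at least 1 match. A match is only a description of sequence. The windows with matches are printed 5′ to 3′ on the gene's strand, with each match in capitals. They lie at chr17:87635729-87636028 (plus strand) for Epcam, chr15:102004293-102004592 (minus) for Krt8, chr15:102027966-102028265 (plus) for Krt18 and chr2:167537945-167538244 (plus) for Snai1.
Epcam: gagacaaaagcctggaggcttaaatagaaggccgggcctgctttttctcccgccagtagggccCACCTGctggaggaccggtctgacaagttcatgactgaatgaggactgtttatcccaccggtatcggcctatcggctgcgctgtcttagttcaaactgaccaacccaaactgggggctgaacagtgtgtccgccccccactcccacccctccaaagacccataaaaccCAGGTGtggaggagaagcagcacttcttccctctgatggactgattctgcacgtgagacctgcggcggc
Krt8: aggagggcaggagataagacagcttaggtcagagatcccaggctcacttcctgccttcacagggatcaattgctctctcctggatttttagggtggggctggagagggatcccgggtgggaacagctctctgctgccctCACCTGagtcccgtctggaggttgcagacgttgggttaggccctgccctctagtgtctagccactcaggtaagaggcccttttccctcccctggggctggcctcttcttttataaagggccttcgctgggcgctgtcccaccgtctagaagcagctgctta
Krt18: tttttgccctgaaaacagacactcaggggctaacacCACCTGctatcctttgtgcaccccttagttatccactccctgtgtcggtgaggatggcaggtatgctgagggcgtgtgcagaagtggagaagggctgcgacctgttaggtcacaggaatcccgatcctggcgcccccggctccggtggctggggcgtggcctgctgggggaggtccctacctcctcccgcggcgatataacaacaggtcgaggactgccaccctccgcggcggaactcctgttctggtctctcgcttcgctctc
Snai1: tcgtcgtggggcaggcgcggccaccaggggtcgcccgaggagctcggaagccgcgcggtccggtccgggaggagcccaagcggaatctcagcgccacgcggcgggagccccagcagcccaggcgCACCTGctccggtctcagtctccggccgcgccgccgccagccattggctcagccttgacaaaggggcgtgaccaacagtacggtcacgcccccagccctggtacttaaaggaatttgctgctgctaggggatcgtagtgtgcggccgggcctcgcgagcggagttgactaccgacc

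Of the 10 genes, Epcam fell and Snai2 rose with artemisinin, and the other 8 did not pass the test. Epcam fell 2.53-fold and Snai2 rose 2.04-fold. All 10 passed the filter on low counts. Over all 15242 genes tested, 4.47% were called, meaning a Benjamini-Hochberg adjusted p under 0.05 by edgeR (quasi-likelihood), with 2.17% of all tested genes called higher with artemisinin and 2.30% called lower. At an unadjusted p under 0.05 edgeR had 2 of the 10 genes, against 24.7% of all tested genes. DESeq2 also called 2 of the 10, against 15.0% of all tested genes. The 3 artemisinin values lay apart from the 3 model values for 4 of the 10 genes (Cdh1 and Epcam lower, Snai1 and Snai2 higher), where this held for 33.6% of all tested genes, so the share among the 10 is near the background. The median log2 fold change was -0.44 for the 5 epithelial genes and 0.39 for the 5 transition genes, against 0.04 for all tested genes. All 5 epithelial estimates lay below 0 and all 5 transition estimates above 0, but that of Krt19 was -0.01 and turned positive with scaling by library totals (0.09), and that of Zeb1 turned negative without artemisinin replicate 3 (-0.13).

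**Figure D1:**
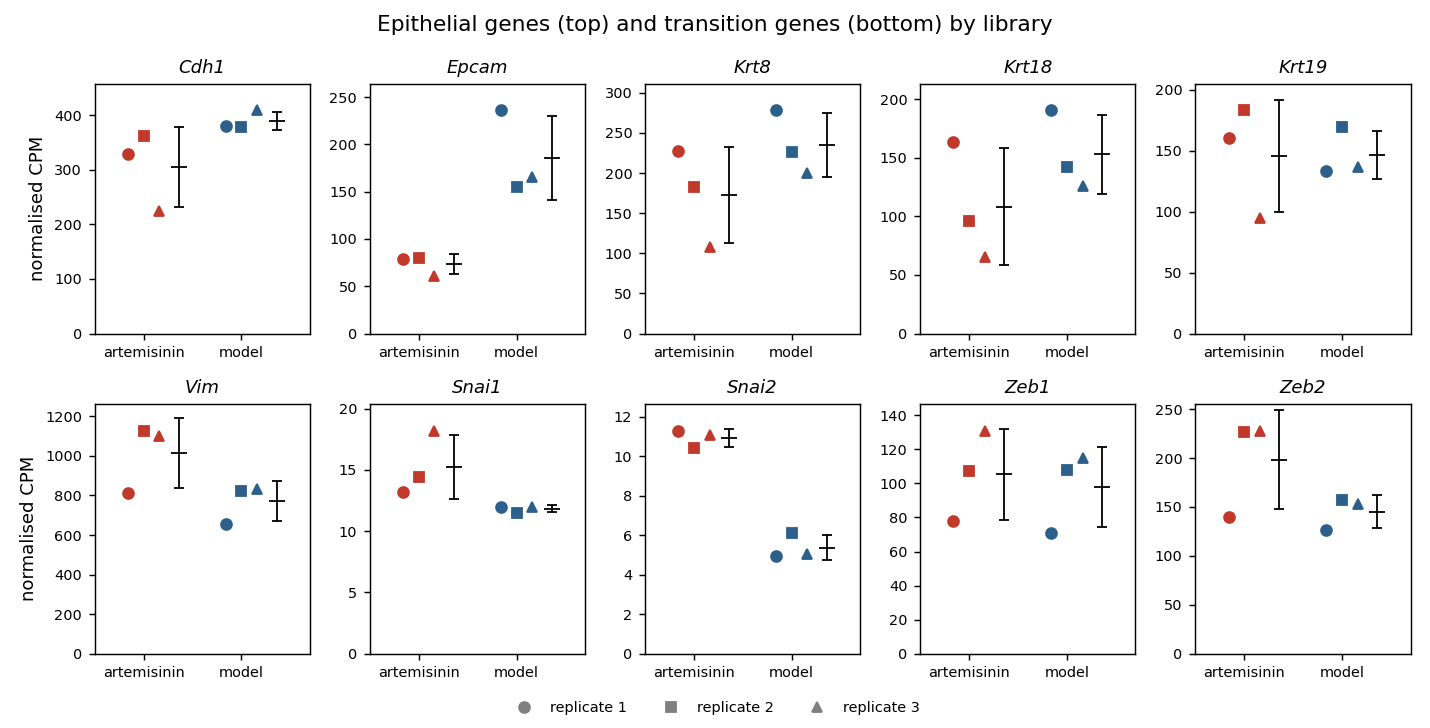
Normalised CPM of each gene in each library, artemisinin on the left and model on the right of each panel, with the mean and SD (n = 3) beside the points. Epcam lies at 61.0 to 80.1 in the artemisinin libraries and 155 to 236 in the model libraries, and Snai2 at 10.4 to 11.3 against 4.97 to 6.10.

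Epcam encodes a surface adhesion molecule of most simple epithelia and of many carcinomas (Entrez gene 17075, chromosome 17, 87635979 to 87651127, GRCm38). Its normalised CPM, counts scaled to the library total and corrected for library composition, were 79.0, 80.1 and 61.0 in artemisinin replicates 1, 2 and 3, and 236, 155 and 166 in model replicates 1, 2 and 3. Every artemisinin value was well under the lowest model value, and model replicate 1 was the highest. The means were 73.3 ± 10.7 with artemisinin and 186 ± 43.9 in the model (SD, n = 3 each). The log2 fold change came to -1.34 with an SE of 0.21 (edgeR adjusted p = 0.0236). The raw counts were 2142, 2548 and 2135 with artemisinin and 7789, 5040 and 5265 in the model, so counting error is small beside the spread between mice. The call was lost when artemisinin replicate 1 (adjusted p = 0.0551) or model replicate 1, 2 or 3 (0.0875, 0.0507 and 0.0831) was left out in edgeR, with log2 fold changes of -1.40, -1.13, -1.48 and -1.42. It was also lost with replicate number as a block (edgeR adjusted p = 0.0515).

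Cdh1 encodes E-cadherin, the calcium-dependent adhesion protein of epithelial adherens junctions (chromosome 8, 106603350 to 106670247). It had 329, 363 and 224 normalised CPM with artemisinin and 381, 378 and 409 in the model. The groups did not overlap, but the gap between 363 and 378 was small beside the spread of the artemisinin mice. The log2 fold change was -0.35 ± 0.21 (SE), with a 95% interval of -0.84 to 0.14, and it did not pass (edgeR adjusted p = 0.332). The Epcam to Cdh1 ratio of FPKM, a scale per gene length, was 0.516, 0.474 and 0.586 with artemisinin and 1.33, 0.883 and 0.870 in the model. All 3 artemisinin ratios were thus lower than all 3 model ratios, although both genes are epithelial adhesion genes. This ratio was chosen after the values were seen and was not tested.

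Krt8 and Krt18 encode the type II and type I keratins that pair into the filaments of simple epithelia. They are neighbours on chromosome 15 (Krt8 at 101996711 to 102004342 on the minus strand, Krt18 at 102028216 to 102032026 on the plus strand), with their starts facing each other across 23.9 kb. Krt8 had 227, 182 and 108 normalised CPM with artemisinin and 278, 226 and 200.4 in the model. Krt18 had 163, 96.4 and 65.2 with artemisinin and 190.3, 142 and 126 in the model. For both genes artemisinin replicate 1 and model replicate 1 were the highest of their groups, and the groups overlapped through artemisinin replicate 1. The log2 fold changes were -0.44 ± 0.28 for Krt8 and -0.50 ± 0.33 for Krt18 (SE), with 95% intervals of -1.10 to 0.21 and -1.28 to 0.29 (edgeR adjusted p = 0.357 and 0.388). The Krt8 to Krt18 ratio of FPKM was 1.08, 1.46 and 1.29 with artemisinin and 1.13, 1.24 and 1.24 in the model, with overlap of the groups. Krt18 came to -0.92 on the log2 scale when artemisinin replicate 1 was left out, and still did not pass (edgeR adjusted p = 0.113).

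Krt19 encodes a type I keratin of ductal and airway epithelia (chromosome 11, 100140810 to 100145926). It had 160.2, 183 and 94.4 normalised CPM with artemisinin and 133, 169 and 137 in the model. Artemisinin replicate 2 was the highest and artemisinin replicate 3 the lowest of the 6 libraries, and both group means were 146 normalised CPM. The 95% interval of the log2 fold change ran from -0.60 to 0.59 (edgeR adjusted p = 0.990), so moderate changes in either direction lie within it.

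**Figure D2:**
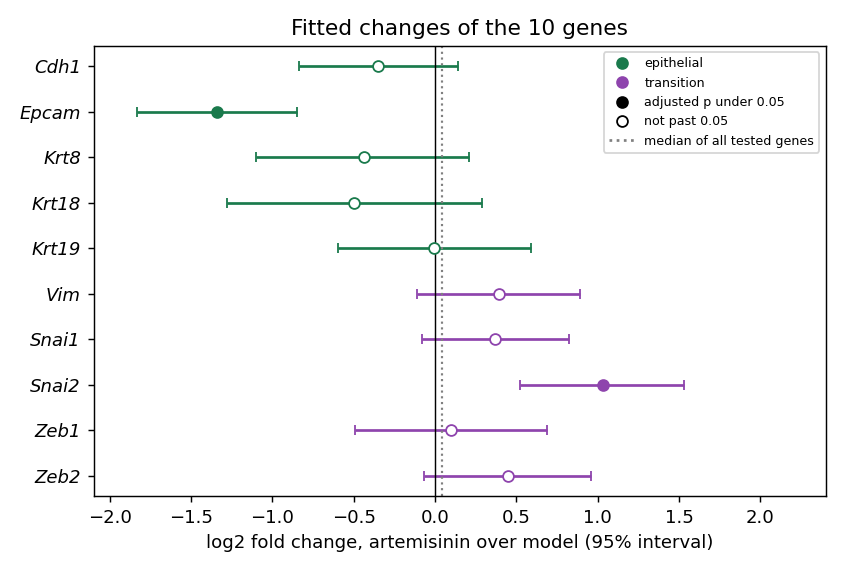
Log2 fold changes of artemisinin over model for the 10 genes with 95% intervals, filled where the adjusted p was under 0.05, and the median of all tested genes as a dotted line. The intervals of Epcam (-1.83 to -0.85) and Snai2 (0.52 to 1.53) exclude 0, and the other 8 include it.

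Snai2, also called Slug, encodes a zinc finger repressor of the Snail family (Entrez gene 20583, chromosome 16, 14705852 to 14709395). Its normalised CPM were 11.3, 10.4 and 11.1 in the artemisinin replicates and 4.97, 6.10 and 5.03 in the model replicates. The artemisinin values sat close together and all lay above the model values. The means were 10.9 ± 0.488 with artemisinin and 5.37 ± 0.636 in the model (SD, n = 3 each). The log2 fold change came to 1.03 with an SE of 0.22 (edgeR adjusted p = 0.0460). The counts behind it were 306, 330 and 390 with artemisinin and 164, 198 and 160 in the model. The adjusted p was near the threshold: edgeR lost the call with no filter on low counts (0.0569) and without artemisinin replicate 1 or 3 (0.0758 and 0.0976) or model replicate 1, 2 or 3 (0.190, 0.122 and 0.198). It was also lost with replicate number as a block (edgeR adjusted p = 0.123). The log2 fold change stayed between 0.89 and 1.13 in the 16 alternatives run.

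Snai1, the gene of Snail itself (chromosome 2, 167538195 to 167542814), had 13.2, 14.4 and 18.2 normalised CPM with artemisinin and 12.0, 11.5 and 12.0 in the model. The 3 model mice were nearly equal and every artemisinin mouse was above them, replicate 3 furthest. The log2 fold change of 0.37 ± 0.19 (SE; 95% interval -0.08 to 0.82) did not pass (edgeR adjusted p = 0.276). The Snai2 to Snai1 ratio of FPKM was 0.684, 0.574 and 0.489 with artemisinin and 0.331, 0.423 and 0.334 in the model, another ratio chosen after the values were seen and not tested.

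Zeb1 and Zeb2 encode the paired zinc finger homeobox repressors of the family (Zeb1 on chromosome 18, 5591327 to 5775468, and Zeb2 on chromosome 2, 44983512 to 45117442). Zeb1 had 77.9, 107 and 131 normalised CPM with artemisinin and 71.1, 108 and 115 in the model. These groups overlapped almost entirely, and the log2 fold change was 0.10 ± 0.25 (SE; 95% interval -0.49 to 0.69; edgeR adjusted p = 0.824). Zeb2 had 140.1, 227 and 228 normalised CPM with artemisinin and 126, 157 and 153 in the model. Artemisinin replicates 2 and 3 were above every model mouse, while artemisinin replicate 1 lay among them. The log2 fold change of Zeb2 was 0.45 ± 0.22 (SE; 95% interval -0.07 to 0.96) and did not pass (edgeR adjusted p = 0.255). Antisense or small RNA genes overlap Zeb1 and Zeb2 in the GENCODE annotation, and a long non-coding RNA gene overlaps Krt8 on the other strand. None of them has its own row in the count table, so reads of these neighbours may be among the counts.

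Vim encodes vimentin, the intermediate filament of mesenchymal cells, endothelium and leukocytes (chromosome 2, 13574311 to 13582826). It had 810.2, 1128 and 1102 normalised CPM with artemisinin and 655, 824 and 835 in the model. Artemisinin replicates 2 and 3 stood above all model mice, and artemisinin replicate 1 below model replicates 2 and 3. The log2 fold change was 0.39 ± 0.21 (SE; 95% interval -0.11 to 0.89; edgeR adjusted p = 0.292). The Vim to Cdh1 ratio of FPKM was 5.95, 7.50 and 11.9 with artemisinin and 4.15, 5.27 and 4.93 in the model, without overlap. For both Vim and Cdh1 the intervals of the change include 0.

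Levels between the genes were compared on the FPKM scale. Vim was the highest in both groups, at 571 ± 89.7 FPKM with artemisinin and 407 ± 58.4 in the model (SD, n = 3 each), clear of the next gene. In the artemisinin mice Krt19 (106), Krt8 (99.0), Krt18 (80.3) and Cdh1 (71.1 FPKM) followed, and the ranges of each neighbouring pair overlapped. Epcam came next, apart from them, at 36.8 ± 4.91 FPKM. In the model mice Krt8 (125), Krt18 (105), Krt19 (100), Epcam (86.7) and Cdh1 (84.8 FPKM) followed Vim, again with overlapping neighbours, so that Epcam stood inside the epithelial block there. The transcription factor genes were far lower: Zeb2 at 21.3 ± 5.13 FPKM with artemisinin and 14.6 ± 1.89 in the model, Snai1 at 9.77 ± 1.82 and 7.05 ± 0.0654, Snai2 at 5.58 ± 0.455 and 2.55 ± 0.350, and Zeb1 at 3.24 ± 0.840 and 2.82 ± 0.711. Snai2 was above Zeb1 in the artemisinin mice without overlap of ranges, and the ranges of these 2 genes overlapped in the model mice. The Zeb2 to Zeb1 ratio of FPKM was 6.31, 7.44 and 6.08 with artemisinin and 6.23, 5.07 and 4.66 in the model.

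Library by library, the 2 sets moved apart most in artemisinin replicate 3. The mean of the 5 epithelial genes, as a difference from the model mean on the log2 scale, was -0.24, -0.39 and -1.06 in artemisinin replicates 1, 2 and 3 and 0.16, -0.04 and -0.12 in model replicates 1, 2 and 3. The mean of the 5 transition genes was 0.18, 0.50 and 0.64 in the artemisinin replicates and -0.19, 0.11 and 0.08 in the model replicates. Artemisinin replicate 3 had the lowest value of the 6 libraries for all 5 epithelial genes and the highest for 3 of the 5 transition genes. Over all tested genes this library was the lowest in 16.5% and the highest in 15.6%. Model replicate 1 stood at the other end, the highest in 3 of 5 epithelial genes and the lowest in 4 of 5 transition genes (the highest in 20.3% and the lowest in 20% of all tested genes). With artemisinin replicate 3 left out, Epcam stood at -1.26 and Snai2 at 0.97 on the log2 scale of change (edgeR adjusted p = 0.0454 and 0.0976).

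**Figure D3:**
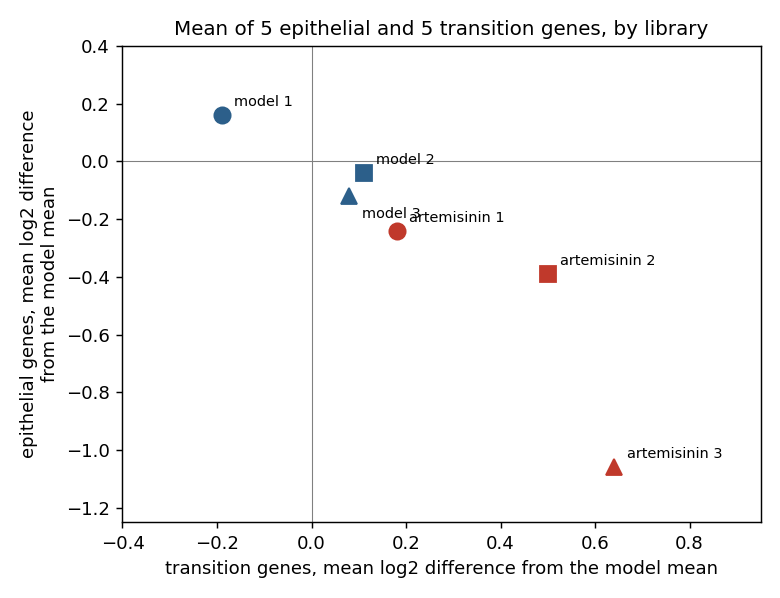
Mean log2 difference from the model mean of the 5 transition genes (x axis) and the 5 epithelial genes (y axis), 1 point per library, artemisinin in red and model in blue. Artemisinin replicate 3 lies lowest and furthest right at 0.64 and -1.06, and model replicate 1 at the opposite corner at -0.19 and 0.16.

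The genes whose profile over the 6 libraries was most like that of each gene were found by the root mean square difference of centred log2 normalised CPM among 14747 tested genes. The nearest to Epcam was Cmtm8 (difference 0.037), followed by Tceal9 (0.102) and Atp11a (0.104). The nearest to Snai2 were Adamtsl2 (0.041), Spn (0.063) and Pip4k2a (0.069). The splicing factor gene Esrp2 (0.052) was the nearest to Krt8, ahead of Ldhd (0.090) and Efna1 (0.093), and Arhgef19 (0.076), Gpd1 (0.078) and Ahsg (0.110) were the nearest to Krt18. The nearest single genes to Cdh1, Krt19 and Vim were Gas6 (0.062), Myh7b (0.048) and Gnai1 (0.054), and those to Snai1, Zeb1 and Zeb2 were Bin3 (0.047), Reck (0.043) and Plekho2 (0.049). None of the 10 genes was among the nearest 3 of another. The closest pair among the 10 was Vim and Zeb2 (0.08), where the third nearest gene to Zeb2, Tnfrsf17, stood at 0.076.

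In the wider set of epithelial genes few passed the test and most lay below 0. Of 23 other junction genes, 2 fell and 0 rose, where 2.30% of all tested genes were called lower. In this list 19 had estimates below 0, and the median log2 fold change was -0.48 against 0.04 for all tested genes. The artemisinin values lay below all model values for 11 of the 23, against 17.3% of all tested genes. At an unadjusted p under 0.05 edgeR had 10 of them, against 24.7% of all tested genes, and DESeq2 called 5, against 15.0%. Muc1, a transmembrane mucin of the apical surface, had 142, 123 and 71.6 normalised CPM with artemisinin and 597, 313 and 375 in the model. It fell 3.82-fold (log2 -1.93 ± 0.34, SE; edgeR adjusted p = 0.0288). Marveld3, a tight junction gene, had 9.14, 10.1 and 8.14 with artemisinin and 25.5, 21.1 and 18.4 in the model, a fall of 2.37-fold (edgeR adjusted p = 0.0244). For both, the lowest model value was above every artemisinin value. Of 16 genes of epithelial transcription, splicing and surface proteases, 1 fell and 0 rose, with 15 below 0 and a median of -0.68. The groups did not overlap, with artemisinin lower, for 8 of the 16, edgeR had 9 at an unadjusted p under 0.05, and DESeq2 called 7. The gene that fell was Grhl2, a grainyhead factor that keeps epithelial genes such as Cdh1 active, at 19.5, 21.1 and 16.1 normalised CPM with artemisinin and 49.2, 42.0 and 37.5 in the model (log2 -1.18 ± 0.17, SE; edgeR adjusted p = 0.0194).

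Other keratin and filament genes did not move as 1 group. Of 20 such genes 15 were tested, 1 rose and 1 fell, where 4.47% of all tested genes were called. The median log2 fold change was 0.22, against 0.04 for all tested genes. At an unadjusted p under 0.05 edgeR had 5 of them, against 24.7% of all tested genes, and DESeq2 called 3, against 15.0%. Desmin, the muscle filament gene Des, had 342, 643 and 165 normalised CPM with artemisinin and 47.5, 52.4 and 61.4 in the model, a rise of 7.12-fold (edgeR adjusted p = 0.0252). On the log2 scale this was 2.83, or 2.23 with artemisinin replicate 2, the mouse with the highest value, left out. Krt23, a type I keratin, had 17.6, 27.5 and 7.94 with artemisinin and 86.4, 62.4 and 56.8 in the model, a fall of 3.88-fold (edgeR adjusted p = 0.0491). Its call was lost with no filter on low counts (edgeR adjusted p = 0.0567) and in limma on FPKM without a filter (0.0721). The stratified keratins Krt5, Krt13 and Krt14 did not pass the expression filter and were not tested, and almost all their counts came from artemisinin replicate 2. Krt4 and Krt15 passed the filter with most of their counts also from that mouse, and neither was called (edgeR adjusted p = 0.165 and 0.107). Krt4 reached 1144 normalised CPM there and at most 1.29 in the other 5 libraries. Krt7, a simple keratin, had 303, 317 and 124 normalised CPM with artemisinin and 237, 283 and 248 in the model, with overlap.

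Among 14 other transition transcription factor genes, 13 were tested, 1 rose and 1 fell, where 4.47% of all tested genes were called. The median log2 fold change was 0.45, against 0.04 for all tested genes. The artemisinin values lay above all model values for 7 of the 13 and below them for 2. Of all tested genes, this held for 16.3% and 17.3%. At an unadjusted p under 0.05 edgeR had 6 of them, against 24.7% of all tested genes, and DESeq2 called 3, against 15.0%. Prrx1, a homeobox gene of mesenchymal cells, had 27.1, 40.5 and 26.8 normalised CPM with artemisinin and 12.3, 15.9 and 15.7 in the model, a rise of 2.15-fold (edgeR adjusted p = 0.0384). Its call was lost in limma on log2(FPKM + 1) (adjusted p = 0.052) and in limma on FPKM without a filter (0.0769). Sox4 had 74.9, 81.5 and 77.8 with artemisinin and 177, 137 and 153 in the model, a fall of 2-fold (edgeR adjusted p = 0.0194). So the 2 called genes of this list went in opposite directions. Twist1 and Twist2, further classical factors named after their values were seen, stood at or under 1.94 normalised CPM in every library.

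Of 25 mesenchymal adhesion and matrix genes, 4 rose and 0 fell, where 2.17% of all tested genes were called higher, and the median log2 fold change was 0.50. The artemisinin values lay above all model values for 10 of the 25, against 16.3% of all tested genes. At an unadjusted p under 0.05 edgeR had 11, against 24.7% of all tested genes, and DESeq2 called 8, against 15.0%. S100a4, a calcium-binding protein gene of fibroblasts and leukocytes, had 102, 77.4 and 78.5 normalised CPM with artemisinin and 19.1, 19.5 and 13.6 in the model. It rose 4.95-fold (log2 2.31 ± 0.20, SE; edgeR adjusted p = 0.00645). Lox, which cross-links collagen and elastin, rose 2.94-fold, to 144 ± 25.8 normalised CPM with artemisinin against 48.9 ± 8.11 in the model (SD, n = 3 each; edgeR adjusted p = 0.0130). The contractile genes Acta2 and Tagln rose 4.17-fold and 3.59-fold (edgeR adjusted p = 0.00984 and 0.0184). N-cadherin, the Cdh2 gene often set against Cdh1 and named after its values were seen, had 3.10, 2.33 and 4.83 normalised CPM with artemisinin and 1.97, 2.83 and 1.51 in the model, with overlap. Of 21 TGF-beta pathway genes, 1 fell and 0 rose, with a median of -0.08, where 2.30% of all tested genes were called lower. In this list edgeR had 5 at an unadjusted p under 0.05, and DESeq2 called 4, to be read against the same shares of 24.7% and 15.0%. The gene was Smurf1, a ubiquitin ligase that marks Smad proteins for breakdown, at 58.8, 67.4 and 69.8 normalised CPM with artemisinin and 155, 105 and 112 in the model (log2 -0.93 ± 0.18, SE; edgeR adjusted p = 0.0378). Its call was lost in limma on log2(FPKM + 1) (adjusted p = 0.0529) and in limma on FPKM without a filter (0.0663).

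These 12 calls were often lost when 1 mouse was left out. Leaving out artemisinin replicate 1, 2 or 3 left 6, 12 and 10 of the 12 called in edgeR, and leaving out model replicate 1, 2 or 3 left 0, 4 and 1. S100a4 was the 1 gene kept without model replicate 3. Of the 12, the estimate of Des moved by over 1.5-fold in these fits and those of the other 11 did not. Without model replicate 1, S100a4 stood at 2.38 and Acta2 at 1.96 on the log2 scale of change (edgeR adjusted p = 0.0515 and 0.0654). Each of these fits also has fewer mice. With all mice kept and replicate number as a block, 4 of the 12 were still called in edgeR.

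**Figure D4:**
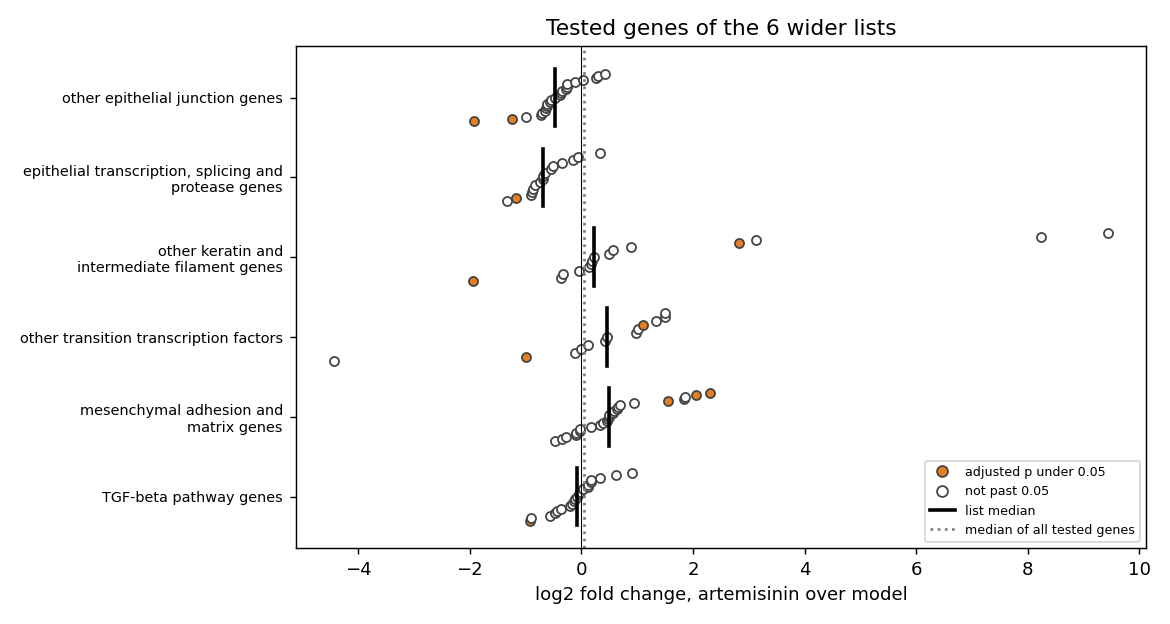
Log2 fold changes of artemisinin over model for the tested genes of 6 lists (1 point per gene, filled where the adjusted p was under 0.05), list medians as bars and the median of all tested genes as a dotted line. The 2 epithelial lists have medians of -0.48 and -0.68, and the mesenchymal list 0.50.

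Markers of several cell types moved with these genes, and their part in the results was not tested. Of 11 alveolar type 2 markers 7 fell and 0 rose, where 2.30% of all tested genes were called lower. For all 11 the artemisinin values lay below all model values, against 17.3% of all tested genes. At an unadjusted p under 0.05 edgeR had 11, against 24.7% of all tested genes, and DESeq2 called 11, against 15.0%. Their summed normalised CPM ranged from 7442 to 22993 with artemisinin and from 53801 to 80448 in the model. These sums were lowest in artemisinin replicate 3. Their highest gene was Sftpc, with 7952 ± 4365 normalised CPM with artemisinin and 27783 ± 6857 in the model (SD, n = 3 each; edgeR adjusted p = 0.104). Of 9 alveolar type 1 markers 0 were called, with sums of 3452 to 6488 and 4099 to 5646. Of 9 club and secretory markers 0 were called, with sums of 20535 to 72511 with artemisinin and 7984 to 20262 in the model, led by Scgb1a1. Ciliated markers (0 of 10 called) summed to 638 to 1004 and 308 to 569. The type 2 sums did not overlap between the groups, and without Sftpc they still ran from 4474 to 11905 with artemisinin and from 32358 to 45387 in the model. The separation of the club and of the ciliated sums rested on 1 gene each, left out here after the values were seen. Without Scgb1a1 the club sums were 2196 to 5919.9 with artemisinin and 837 to 2664 in the model, with overlap, and without Tppp3 the ciliated sums were 204 to 526 and 113 to 238, also with overlap. At an unadjusted p under 0.05 edgeR had 0 of the type 1, 3 of the club and 8 of the ciliated markers, where 24.7% of all tested genes had such a p, and DESeq2 called 0, 3 and 6 of them, against 15.0% of all tested genes.

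On the mesenchymal side, 9 of 9 smooth muscle markers rose, with sums of 1141 to 1999 normalised CPM with artemisinin and 309.8 to 473 in the model. Of all tested genes, 2.17% were called higher and 2.30% lower, to be read beside each count of called markers here. Acta2, Tagln and Des belong to both that list and the wider lists. Of 11 fibroblast and pericyte markers 1 rose, with sums of 1774 to 2839 with artemisinin and 1463 to 1786 in the model. Of 10 neutrophil markers 6 rose, with sums of 899 to 4936 with artemisinin, highest in replicate 3, and 171 to 236 in the model. Endothelial markers (0 of 11 called) summed to 2179 to 4953 and 2474 to 4331, and in 12 macrophage markers 1 rose and 1 fell, with sums of 693 to 1287 and 898 to 999.8. Basal and squamous markers (0 of 10 called, 5 tested) summed to 2937 in artemisinin replicate 2 and at most 11.4 in the other 5 libraries, and skeletal muscle markers (0 of 8 called, 5 tested) to 6261 there and at most 60.2 elsewhere. With artemisinin replicate 2 left out, Epcam stood at -1.41 and Snai2 at 1.06 on the log2 scale of change (edgeR adjusted p = 0.0240 and 0.0490), as large as with it. Mesothelial markers (0 of 8 called) summed to 33.4 to 242 with artemisinin and 91.4 to 114 in the model. At an unadjusted p under 0.05 edgeR had 0 endothelial, 0 mesothelial, 4 squamous and 5 skeletal muscle markers (24.7% of all tested genes had such a p), and DESeq2 called 0, 0, 2 and 0 (15.0% of all tested genes). T and NK cell markers (0 of 9 called) summed to 108 to 239.7 with artemisinin and 106 to 137 in the model, B cell markers (0 of 6) to 189 to 334 and 121 to 245, adipocyte markers (0 of 4) to 14.6 to 66.1 and 8.69 to 24.4, and Schwann cell markers (0 of 5) to 24.5 to 48.6 and 26.2 to 31.5. At an unadjusted p under 0.05 edgeR had 2, 1, 2 and 1 of these 4 lists, and DESeq2 called 0, 0, 2 and 1, to be read against the same shares of 24.7% and 15.0%. Of 5 cardiac muscle markers 1 rose, with sums of 257 to 978 with artemisinin and 107 to 152 in the model. Without Actc1, the highest of them and left out after the values were seen, these sums overlapped. They were then 52.6 to 683 with artemisinin and 83.7 to 111 in the model. For the lists with calls, edgeR had these numbers at an unadjusted p under 0.05: 9 smooth muscle, 3 fibroblast and pericyte, 10 neutrophil, 5 macrophage and 4 cardiac markers. DESeq2 called 9, 3, 10, 4 and 2 of them. The shares of all tested genes are again 24.7% and 15.0%. No marker of these lists was at 0 in all 6 libraries.

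**Figure D5:**
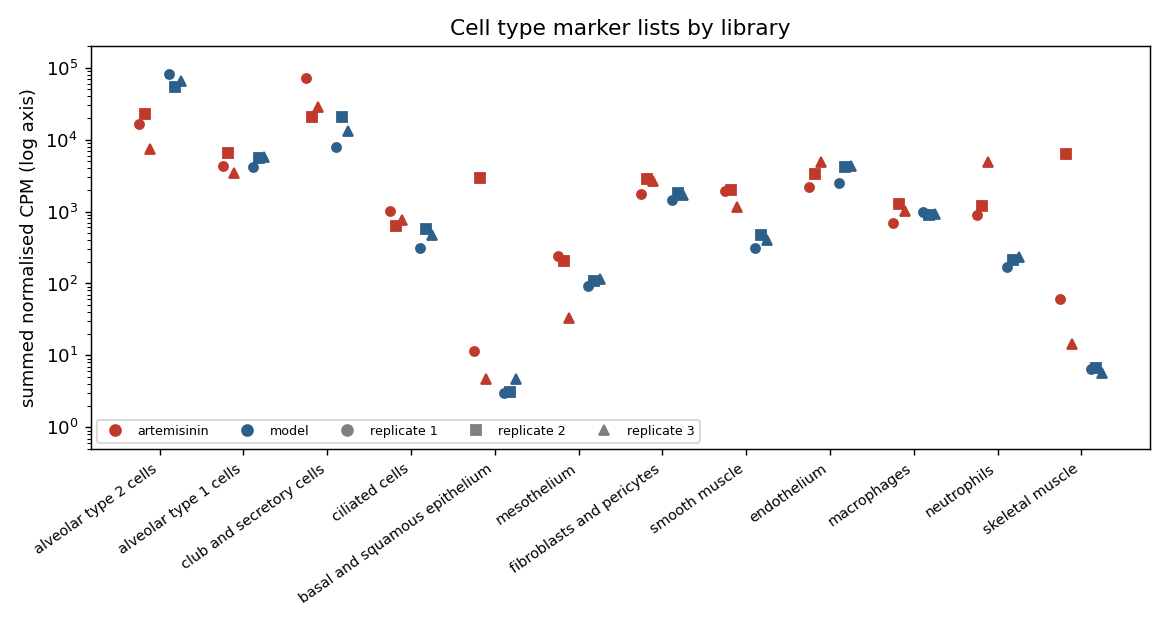
Summed normalised CPM (log axis) of 12 cell type marker lists in each library, artemisinin in red on the left and model in blue on the right of each list, with a symbol per replicate number. Type 2 sums are lower in all 3 artemisinin libraries, smooth muscle and neutrophil sums are higher, and squamous and skeletal muscle sums reach 2937 and 6261 in artemisinin replicate 2.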

How the data were processed

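Per the labels' protocols, RNA came from a mirVana extraction and the libraries are TruSeq Stranded mRNA. Per the submitters' processing notes, the build is GRCm38 (mm10). The sources used here name no aligner, counter or strand setting. The authors deposited raw counts per gene and FPKM for the same 18238 genes. FPKM equalled the deposited counts divided by library total and a value per gene (largest relative gap 5.3e-07 over 15462 genes), so they add no independent evidence.

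Libraries held 25566173 to 34745497 counts. All 6 entered 1 edgeR 4.0.16 fit (R 4.3.3, filterByExpr, TMM, robust quasi-likelihood) over 15242 genes. The fit was also run on simulated data with 1 spread per gene for both groups, which cannot show how it handles unequal spread. SE is the log2 fold change over the root of F, and intervals are 95%. Profiles use log2 of CPM with an offset of 0.5. The spread was wider among artemisinin mice (biological coefficient of variation 0.389) than among model mice (0.211), while the fit assumes 1 spread per gene. Nothing beyond the word mice says that libraries are separate animals, so p-values measure only the spread between these samples. Coordinates are from RefSeq GRCm38.p6 and overlaps from GENCODE M21.

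The 10 genes, 6 wider lists and 17 cell type lists were chosen with earlier results of these data known. The genes named by rule are the 10, each called gene of a wider list (up to 6), the 3 nearest profiles (1 printed for some genes) and the highest cell type marker (printed where a result turns on it). Others named were chosen after their values were seen. Alternatives were DESeq2 1.42.0, limma-voom, limma 3.58.1 on log2(FPKM + 0.1) or log2(FPKM + 1) with a mean FPKM of at least 0.5 or no filter (a scale that understates changes of low genes), other scalings, no count filter, a replicate block and each library left out.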

Additional observations from a re-analysis of the deposited data

How the results depend on the processing

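Of the 10 genes 2 passed the threshold, and 1 did with no filter on low counts (Epcam). With each library left out in turn the number ran from 0 to 2, with 2 to 7 of the 10 genes at an unadjusted p under 0.05 in edgeR, where 14.9% to 30.0% of all tested genes had such a p. In the wider lists 12 genes were called, 30 with DESeq2, and 0 to 21 with each library left out. The other edgeR scalings, DESeq2, limma-voom and the limma fits on FPKM kept both Epcam and Snai2. The labels do not state whether the replicate numbers pair the mice. The correlations of same-numbered deviations from the group means were 0.00251, -0.138 and 0.0419. Artemisinin replicate 1 correlated best with model replicate 2 (0.106). Correlations among so few libraries cannot decide whether same-numbered mice were paired. The SE fell with replicate number as a block for Krt8 (0.28 to 0.19), Krt18 (0.33 to 0.19) and Zeb1 (0.25 to 0.14). It also fell for Epcam, Krt19, Vim and Zeb2, and it rose for Cdh1, Snai1 and Snai2. With the replicate block 0 of the 10 genes were called by edgeR (5 at an unadjusted p under 0.05, against 20.8% of all tested genes; adjusted p = 0.0515 for Epcam and 0.123 for Snai2). In the wider lists 5 genes were called with the block, 4 of them among the 12 called without it. The change of Krt19 (-0.01 on the log2 scale) was 0.09 with library totals, 0.06 with upper quartile scaling, 0.05 in each limma fit on FPKM and, with a library left out, between -0.20 and 0.19. That of Zeb1 (0.10) lay between -0.13 and 0.28 with a library left out. The cause of these changes was not tested. Scaling by library totals moved the median of all genes to 0.14, against 0.039 with TMM. Snai2, at 160 to 390 counts per library, had the least counting precision of the 10 genes.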

Other observations

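Sox9, a transcription factor gene of distal lung progenitors, had 1.36, 0.346 and 0.314 normalised CPM with artemisinin and 38.8, 2.77 and 1.45 in the model. Most of its model level came from replicate 1, the mouse that was also highest for Epcam, Krt8 and Krt18, and it did not pass the test (edgeR adjusted p = 0.113). Peripherin, the neuronal filament gene Prph, had 13.5, 6.85 and 2.11 normalised CPM with artemisinin and at most 1 in the model. These groups did not overlap, and the gene missed the threshold (edgeR adjusted p = 0.0503).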
